A study of Mus musculus with 6 samples.

Results

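The genes described here are 44 genes of ribosome biogenesis and the nucleolus, taken from a list of RNA polymerase I, snoRNP and ribosome assembly genes. All 44 were found among the 52636 gene identifiers in the count tables, and all passed the filter on low counts, as did 15816 genes in all. They lie on 18 chromosomes. Ribosome biogenesis, the making of ribosomes from ribosomal RNA and proteins, begins in the nucleolus, where RNA polymerase I transcribes the ribosomal RNA precursor. Small nucleolar ribonucleoproteins (snoRNPs) guide its methylation and pseudouridylation, and assembly factors fold, cut and export the small and large subunits. Dividing stem cells express these genes strongly, and Myc, a growth-promoting transcription factor, is known to raise many of them.

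The RNA came from mouse embryonic stem cells of the E14 line after 4 days with 5 µM retinoic acid, a dose whose unit the labels write as µm. Before that, all cells were grown in serum with LIF, the MEK inhibitor PD0325901 and the GSK inhibitor CHIR99021, and LIF and the inhibitors were withdrawn for the 4 days. Of the 6 libraries, 3 were wild type and 3 lacked an enhancer cluster, which the series title ties to HoxB activation and to the formation of neural progenitors. How many clones carried the knockout, and where the deletion lies, was not given in the sources used here, so no deleted gene was used to check the labels. The design text calls the 3 libraries of a group biological replicates. If they came from 1 clone or culture, the p-values measure only the spread between these libraries.

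Gene counts ran from 8208615 to 9472916 in wild-type and from 7780368 to 8521902 in knockout libraries. Knockout replicate 1 stood apart in genes over ribosomal RNA repeats, with 1.04% of its counts, while the other libraries had 0.0726 to 0.118%. The share of counts in mitochondrial genes was 1.67 to 1.73% in wild type and 2.58 to 2.89% in the knockout. Of 6 pluripotency markers, 4 fell and 2 rose. Their sums were 701.1 to 722.7 CPM in wild type and 405.6 to 422.4 CPM in the knockout (counts scaled to library size). Nanog, Zfp42, Sox2 and Esrrb fell, with log2 fold changes of -2.32, -1.55, -1.49 and -1.18. The 2 that rose were Klf4 (0.28) and Pou5f1 (0.12). The Pou5f1 groups overlapped, at 178 to 188 CPM in wild type and 183 to 210 CPM in the knockout. Of 6 neural progenitor markers, 4 were tested, 2 fell and 1 rose, and their sum was 239.6 to 250.1 CPM in wild type and 39.7 to 48.4 CPM in the knockout. Nearly all of that sum was Nes, at 231 ± 6.84 and 33.6 ± 3.49 CPM (SD, n = 3 each), while Pax6 rose from 2.12 to 4.76 CPM. Among the other markers of this list, Fabp7 had 0 counts in all libraries, Hes5 had 1 count in a single library, and Sox1 stood at 1.25 to 2.46 CPM over all libraries. Of 6 endoderm markers, 4 rose and 1 fell in the knockout, and their summed level went from 1339 to 1355 CPM in wild type to 3722 to 3833 CPM in the knockout. Most of that sum was Lamb1, at 875 ± 18.7 and 2900 ± 42.3 CPM (SD, n = 3 each). Gata4, Gata6 and Dab2 also rose, Sox17 fell from 32.0 to 20.4 CPM, and Foxa2 did not pass the test (24.9 and 25.5 CPM). Of 6 fibroblast markers, 5 were tested, 1 rose and 3 fell, with sums of 504.2 to 520.8 and 220.7 to 227.8 CPM. The largest part of that sum, Col1a1, went from 353 ± 13.0 to 108 ± 2.42 CPM (SD, n = 3 each), while Col1a2 rose from 13.9 to 33.1 CPM. Of 5 neuron markers, 4 were tested, 1 rose (Map2, log2 fold change 1.63) and 2 fell (Tubb3, -4.92, and Stmn2, -0.25), with sums of 132.8 to 142.1 and 74.6 to 77.0 CPM.

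The question was how the genes that build ribosomes differed between wild-type and knockout cells. Ribosome biogenesis genes were lower in the knockout in nearly every step of the pathway. Of the 44, 40 fell, 1 rose (Dkc1) and 3 did not pass the test (Taf1d, Nop10 and Nle1). The rule was an edgeR adjusted p under 0.05, from the quasi-likelihood test, adjusted over all 15816 genes by Benjamini-Hochberg. By this rule 68.6% of all genes tested changed, 34.0% fell and 34.5% rose. The median log2 fold change, knockout over wild type, was -0.82 for the 44 genes and 0.0091 for all genes tested. Together the 44 genes held 0.852 ± 0.00774% of gene counts in wild type (SD, n = 3) and 0.558 ± 0.00561% in the knockout (SD, n = 3). In bulk RNA, fewer cells of a type and less RNA per cell cannot be told apart. The marker sums and mitochondrial shares above moved with the same libraries, and their part in these falls was not tested.

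Because most genes in these libraries passed the test, size was read beside the call. When a log2 change of 0.5 or more in size was also required, 32 of the 44 fell, against 21.9% of all genes tested. Dkc1 rose by less than that, a size that 23.7% of all genes reached upward. Of these 32, 16 fell by at least 1 on the log2 scale, a fall of 2-fold or more. The other 8 that passed fell by less than 0.5. In 40 of the 44 every knockout library lay below every wild-type library, which held for 35.4% of all genes tested. Among the 7832 tested genes within the same range of mean CPM as the 44, 42.0% fell, and 21.1% fell by at least 0.5 on the log2 scale.

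**Figure D1:**
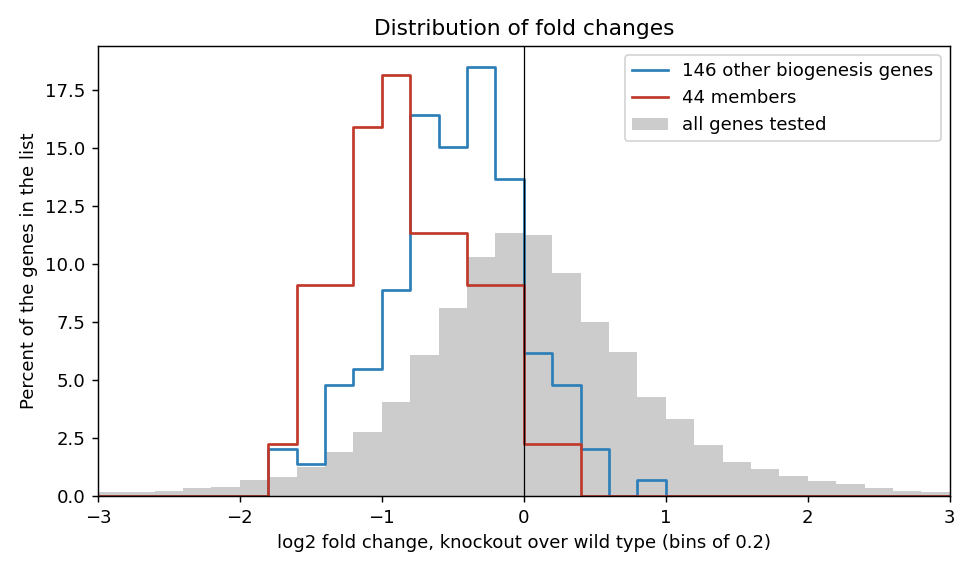
Distribution of log2 fold changes, knockout over wild type, in bins of 0.2 (x axis), as a percent of the genes in each list (y axis), for all genes tested (grey), 146 other ribosome biogenesis genes (blue) and the 44 genes (red). The red line lies mostly left of 0, with a median of -0.82, while the grey bars centre near 0.

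Genes for the machinery that transcribes ribosomal RNA were lower, with 4 of 5 falling. Ubtf encodes UBF, the HMG-box protein that coats ribosomal DNA. The gene (ENSMUSG00000020923) lies on chromosome 11 from 102304560 to 102319742 in GRCm38. It went from 222, 229 and 237 CPM to 71.6, 81.2 and 83.9 CPM. The groups were far apart, and the log2 fold change was -1.54 (SE 0.0529, edgeR adjusted p = 6.88e-19). Polr1a, the largest subunit of RNA polymerase I, went from 204, 189 and 196 CPM to 103, 100 and 105 CPM, a log2 fold change of -0.93 (SE 0.0468). Polr1b, the subunit that forms the catalytic core with it, went from 90.7, 88.7 and 89.0 CPM to 40.3, 43.5 and 45.3 CPM, a log2 fold change of -1.05 (SE 0.0637). For both subunits every knockout library lay below every wild-type library. Rrn3, the factor that makes the polymerase ready to start, fell by less, with a log2 fold change of -0.60 (SE 0.0493). Taf1d, a subunit of the promoter selectivity factor SL1, had 109, 108 and 117 CPM in wild type and 106, 105 and 110 CPM in the knockout. Those ranges overlapped, and Taf1d did not pass the test (log2 fold change -0.06, SE 0.0481, edgeR adjusted p = 0.303).

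**Figure D2:**
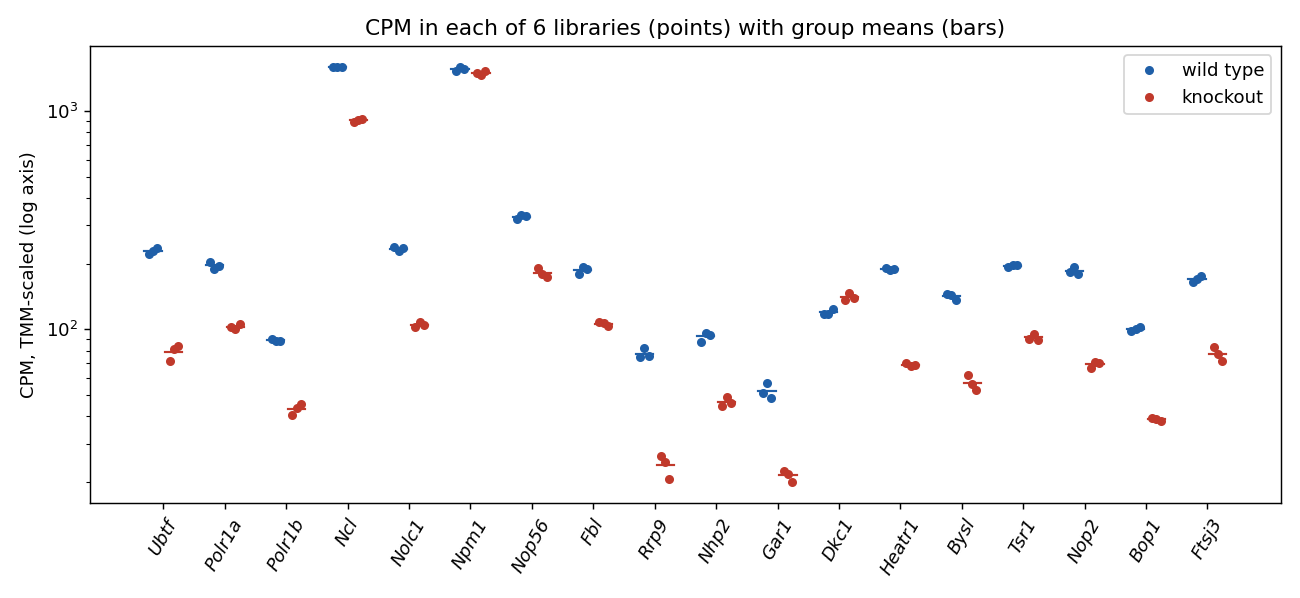
CPM in each library (y axis, log scale, points) with the mean of each group (bars) for 18 of the 44 genes (x axis), wild type in blue and knockout in red, 3 libraries each. In 17 of the 18 genes the knockout points lie below the wild-type points, with Npm1 close to no change, and in Dkc1 they lie above.

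Genes for abundant nucleolar proteins differed widely in how much their RNA fell, although all 4 passed the test. Per exon length the 2 most abundant of the 44 genes in wild type were Npm1, at 587 RPKM, and Ncl, at 157 RPKM, while the median of the 44 was 29.8 RPKM (CPM per kilobase of annotated exon). Ncl encodes nucleolin, which binds nascent ribosomal RNA. It went from 1588.3, 1599.7 and 1598.9 CPM to 892, 912 and 925 CPM, with a log2 fold change of -0.81 (SE 0.0245). Npm1 encodes nucleophosmin, a histone and ribosome chaperone that forms the outer layer of the nucleolus. It went from 1535.9, 1593.5 and 1564.5 CPM to 1494.8, 1471.2 and 1529.1 CPM, a log2 fold change of only -0.06 (SE 0.0231, edgeR adjusted p = 0.0193). The Npm1 groups did not overlap, but their nearest values were 1535.9 and 1529.1 CPM. Its call was lost without wild-type replicate 2 (adjusted p = 0.101), knockout replicate 1 (adjusted p = 0.0714) or knockout replicate 2 (adjusted p = 0.130), and with upper-quartile scaling (adjusted p = 0.351, log2 fold change -0.03). Nolc1, a chaperone that brings snoRNPs to the nucleolus, went from 238, 229 and 236 CPM to 102, 109 and 105 CPM (log2 fold change -1.15, SE 0.0449). Gnl3, which encodes nucleostemin, a nucleolar GTP-binding protein of stem cells, went from 205, 201 and 222 CPM to 182, 180 and 188 CPM (log2 fold change -0.19, SE 0.0456).

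Genes for proteins of the box C/D snoRNPs, which guide methylation of ribosomal RNA, and of the U3 snoRNP fell in 4 of 4. Rrp9, which binds the U3 RNA needed for the early cuts of the precursor, had the largest fall of the 44. The gene (ENSMUSG00000041506) lies on chromosome 9 from 106475963 to 106485424. It went from 74.7, 81.8 and 75.7 CPM to 26.3, 24.6 and 20.7 CPM, with a log2 fold change of -1.70 (SE 0.0837, edgeR adjusted p = 1.35e-15). Fbl encodes fibrillarin, the methyltransferase itself. It went from 180, 193 and 190 CPM to 108, 107 and 103 CPM (log2 fold change -0.83, SE 0.0465). Nop56, a scaffold protein of the particle, went from 321, 335 and 331 CPM to 191, 179 and 174 CPM (log2 fold change -0.86, SE 0.0439). Its paralogue and partner Nop58 fell by less, from 307 ± 10.7 to 239 ± 15.4 CPM (SD, n = 3 each), with a log2 fold change of -0.36 (SE 0.0464).

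Genes for proteins of the box H/ACA snoRNPs, which guide pseudouridylation, did not all move one way. Of these, 2 of 4 fell, 1 rose and 1 did not pass the test. Over all genes tested 34.0% fell and 34.5% rose, so such a mix among 4 genes is not unusual here. Gar1 went from 51.1, 57.0 and 48.6 CPM to 22.5, 21.8 and 19.9 CPM (log2 fold change -1.29, SE 0.0926). Nhp2 went from 87.9, 96.1 and 94.6 CPM to 44.7, 48.9 and 45.8 CPM (log2 fold change -0.999, SE 0.0631). Both encode small core proteins of the particle, and for both the knockout libraries lay well below the wild type. Dkc1, which encodes dyskerin, the pseudouridine synthase that also binds telomerase RNA, was the single gene of the 44 that rose. The gene (ENSMUSG00000031403) lies on chromosome X from 75095854 to 75109777. It went from 118, 118 and 124 CPM to 137, 147 and 139 CPM, with a log2 fold change of 0.24 (SE 0.0472, edgeR adjusted p = 9.49e-05). Nop10, the smallest core protein, had wild-type values of 35.5, 37.8 and 31.5 CPM and knockout values of 34.0, 33.6 and 32.9 CPM. The Nop10 groups overlapped, and it did not pass the test (log2 fold change -0.06, SE 0.0909, edgeR adjusted p = 0.548).

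**Figure D3:**
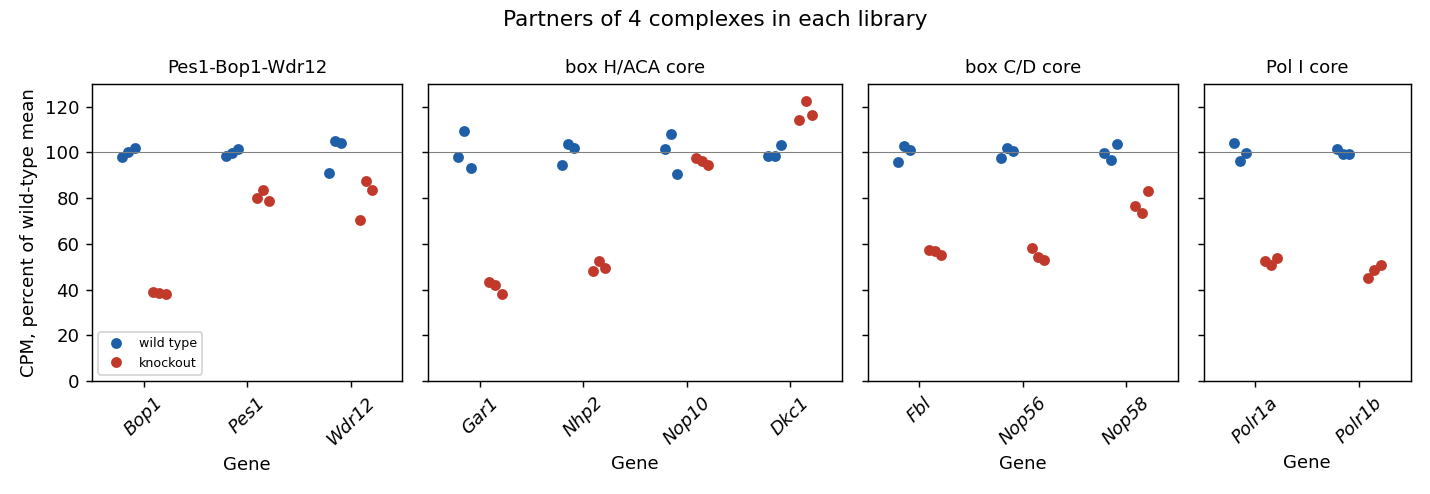
CPM of each library as a percent of the wild-type mean of that gene (y axis) for the genes of 4 complexes (x axis), wild type in blue and knockout in red, 3 libraries each. Bop1 lies well below Pes1 and Wdr12 in the knockout, and Gar1 and Nhp2 lie well below Nop10 and Dkc1.

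All 15 genes of small subunit assembly fell, with a median log2 fold change of -0.71. Heatr1, a large scaffold of the complex that starts small subunit assembly and supports transcription by RNA polymerase I, went from 190, 187 and 190 CPM to 70.3, 67.9 and 68.8 CPM. Its log2 fold change was -1.45 (SE 0.0468, edgeR adjusted p = 1.59e-19). Bysl, a factor of late 40S particles, went from 145, 144 and 136 CPM to 62.0, 56.3 and 52.7 CPM (log2 fold change -1.32, SE 0.0548). Tsr1, which occupies the face of the 40S particle where a translation GTPase would bind, went from 192, 197 and 197 CPM to 90.8, 95.5 and 89.8 CPM (log2 fold change -1.09, SE 0.0461). In all 3 the knockout values were less than 50% of the lowest wild-type value. The U3-associated proteins Imp4, Utp20, Wdr75 and Wdr43 had log2 fold changes of -1.05, -0.94, -0.71 and -0.53. Rrp12, an export factor, was at -1.39. The partners Noc4l and Nop14 were at -0.81 and -0.40. Rcl1, a factor of the early cuts, was at -0.56, and the methyltransferase Emg1 was at -0.53. The late 40S factor Ltv1 was at -0.65. Dimt1, which dimethylates 18S RNA, was at -0.41 (SE 0.104). Nob1, the endonuclease that makes the mature end of 18S RNA, was at -0.27 (SE 0.0650), the smallest fall of the 15.

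Of 12 genes of large subunit assembly, 11 fell, with a median log2 fold change of -0.99. Nop2, an RNA cytosine methyltransferase of 28S RNA, went from 184, 193 and 180 CPM to 66.9, 70.9 and 70.3 CPM (log2 fold change -1.42, SE 0.0490, edgeR adjusted p = 7.33e-19). Bop1, a member of the PeBoW complex with Pes1 and Wdr12, went from 98.4, 101 and 102 CPM to 39.3, 38.7 and 38.2 CPM (log2 fold change -1.37, SE 0.0607). Ftsj3, a methyltransferase that processes the precursor, went from 165, 171 and 175 CPM to 83.4, 77.4 and 71.6 CPM (log2 fold change -1.14, SE 0.0527). For all 3 the groups lay far apart. Grwd1, a WD-repeat histone and ribosome chaperone, had the largest fall among the 12, at -1.57 (SE 0.0891). The assembly factors Ebna1bp2 and Ppan were at -1.11 and -1.10. Mrto4, a relative of the stalk protein P0 that holds its place on the maturing particle, was at -0.88. Nop16 and Rrp1b were at -0.78 and -0.70. Wdr12 and Pes1 fell least, both at -0.31 (SE 0.0729 and 0.0464). Nle1, a WD-repeat factor removed by the ATPase Mdn1, had wild-type values of 24.7, 27.1 and 19.8 CPM and knockout values of 27.1, 23.0 and 22.6 CPM. The Nle1 groups overlapped (log2 fold change 0.01, SE 0.120, edgeR adjusted p = 0.926).

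**Figure D4:**
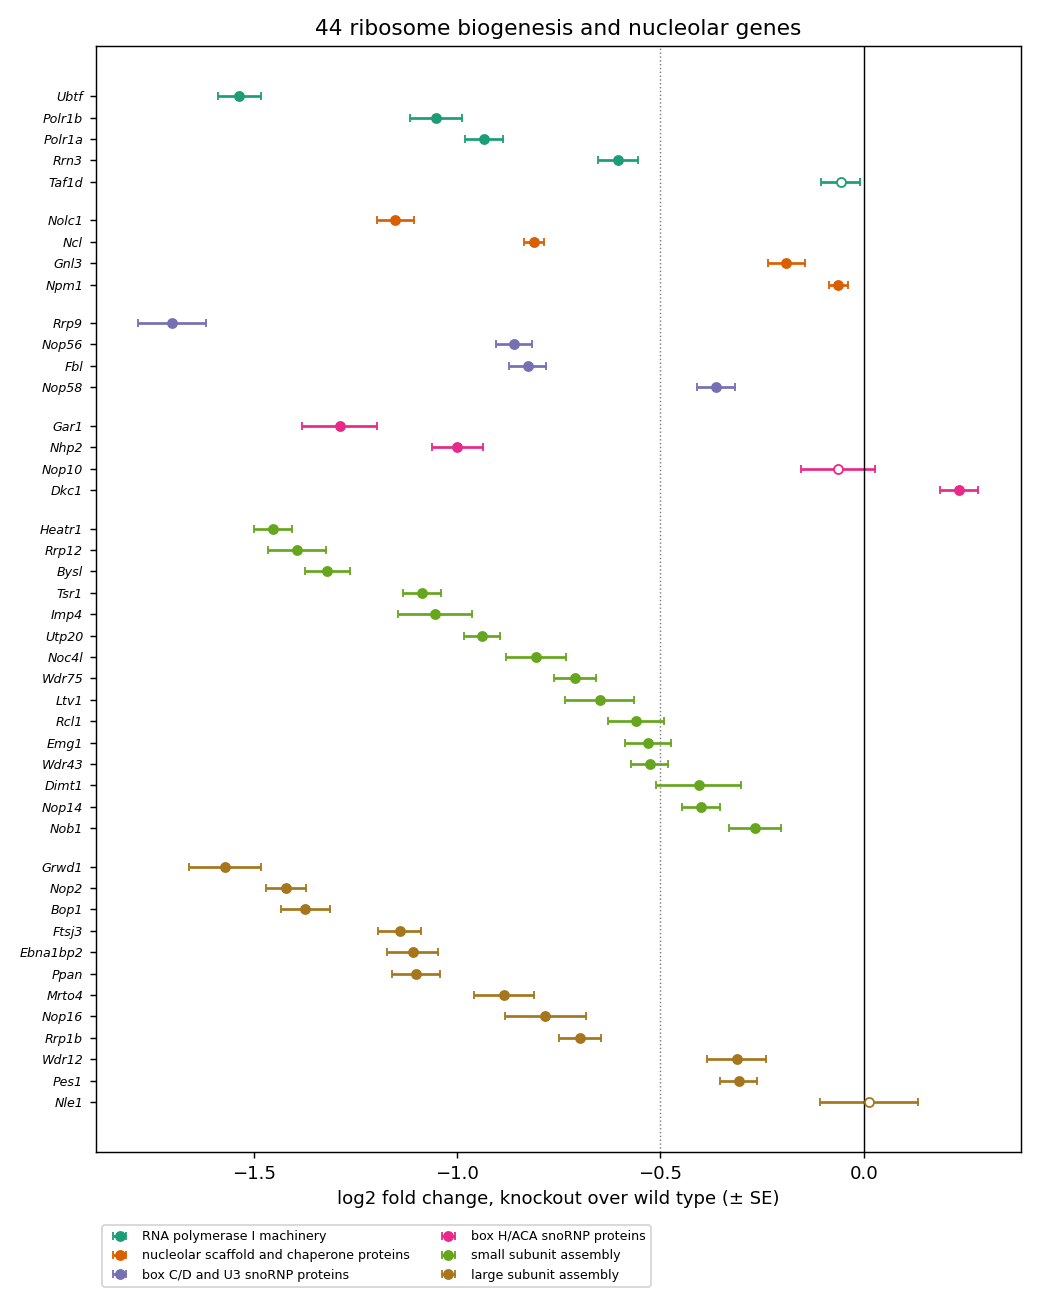
Log2 fold change, knockout over wild type, with its SE (x axis) for each of the 44 genes (y axis), coloured by role. Filled points passed the test, open points did not, and the dotted line marks -0.5. Points run from -1.70 for Rrp9 to 0.24 for Dkc1.

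Genes whose products share a complex were then set against each other within each library, which needs no scaling between libraries. The log2 ratio of Bop1 to Pes1 counts was -0.39, -0.38 and -0.38 for the wild type, compared with -1.42, -1.50 and -1.43 for the knockout. The values within each group were close, the groups did not overlap, and the difference of means was -1.07. The ratio of Pes1 to Wdr12 stood at 0.75 ± 0.0974 in wild type and 0.76 ± 0.152 in the knockout (SD, n = 3 each), and its groups overlapped. In the box H/ACA core, the log2 ratio of Gar1 to Dkc1 went from -1.20 ± 0.152 to -2.72 ± 0.108, and that of Nhp2 to Dkc1 from -0.37 ± 0.0671 to -1.60 ± 0.0138 (SD, n = 3 each). In the box C/D core, Nop56 against Fbl stood at 0.81 ± 0.0216 and 0.78 ± 0.0446 (SD, n = 3 each), with overlap. Nop56 against Nop58 went from 0.10 ± 0.0638 to -0.40 ± 0.138 (SD, n = 3 each). Of 13 ratios in 4 complexes, 11 did not overlap between groups, a separation that 70.9% of single genes also had. That share is for scaled CPM of single genes, and no share over ratios of gene pairs was computed. These 11 had a two-sided exact permutation p of 0.1, or 0.118 after Benjamini-Hochberg adjustment over the 13. As 0.1 is the smallest that 3 against 3 libraries can give, no ratio could pass 0.05, whatever its values. Most of the ratios also share a gene with another and are not independent.

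Myc went from 64.9, 69.1 and 69.9 CPM to 4.38, 2.25 and 3.16 CPM (log2 fold change -4.38, SE 0.134, edgeR adjusted p = 6.09e-20). Its relatives Mycn and Mycl and its partner Max were chosen after their values were seen. Mycn went from 69.0 ± 1.48 to 58.7 ± 2.99 CPM (SD, n = 3 each), a log2 fold change of -0.23 (SE 0.0636). Mycl rose from 20.5 ± 0.660 to 25.2 ± 2.04 CPM (SD, n = 3 each), a log2 fold change of 0.30 (SE 0.109), and Max did not pass the test (-0.08, SE 0.0616). The part of Myc in the falls above was not tested. Myc with its partner Max is known to bind CACGTG, the E-box, so the promoters of the 44 genes were searched for these letters. RefSeq promoters (GRCm38.p6, 250 bases before to 50 after each start) were found for 40 of the 44 genes, 48 windows in all, and not for Npm1, Fbl, Bop1 and Rrp12. CACGTG reads the same on both strands and shares no bases with the other motifs searched. It was in the windows of 10 of the 40 genes (20.8% of 48 windows), against 7.15% of all 32851 windows and 9.73% of the 14078 windows of genes tested. Among those 10 genes 9 fell and the median was -0.79, and among the 30 without it 27 fell and the median was -0.81 (log2 fold changes). The medians with and without these letters near the start lay close together. Only these windows and these letters were searched, and Myc binding was not measured. This split therefore cannot tell which genes Myc acts on, and the part of Myc stays untested. The 2 promoters below hold the E-box before the start and belong to genes that fell by different amounts, Rrn3 (-0.60) and Nop2 (-1.42). Each is printed 5′ to 3′ on its own strand, up to the base before the start, with CACGTG in capitals.
Rrn3, chr16:13780449-13780698, plus strand: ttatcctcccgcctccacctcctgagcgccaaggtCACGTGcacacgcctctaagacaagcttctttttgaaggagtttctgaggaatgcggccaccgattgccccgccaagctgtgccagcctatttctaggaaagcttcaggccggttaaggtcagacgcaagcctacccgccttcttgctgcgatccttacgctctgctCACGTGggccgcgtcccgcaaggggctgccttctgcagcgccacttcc
Nop2, chr6:125131633-125131882, plus strand: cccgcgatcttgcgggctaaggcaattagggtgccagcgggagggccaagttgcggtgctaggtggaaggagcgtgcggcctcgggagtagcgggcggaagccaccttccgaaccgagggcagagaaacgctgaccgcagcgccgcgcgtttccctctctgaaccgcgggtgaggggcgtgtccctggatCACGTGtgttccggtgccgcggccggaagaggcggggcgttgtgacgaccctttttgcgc

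Rrn3 holds CACGTG at 2 places, first bases at -215 and -48 from the start, and Nop2 at -60, with the start counted as 0. In Imp4 it begins at -121. In the other 7 genes it begins after the start, from 2 bases in Pes1 to 37 bases in Utp20. Short stretches around it are shown for the gene of the 10 that fell most, Grwd1 (-1.57), for Imp4 (-1.05), for Pes1 (-0.31) and for Nle1, which did not pass the test.
Grwd1, chr7:45830740-45830767, minus strand: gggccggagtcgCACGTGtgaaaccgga
Imp4, chr1:34439696-34439725, plus strand: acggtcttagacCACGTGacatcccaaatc
Pes1, chr11:3963965-3963994, plus strand: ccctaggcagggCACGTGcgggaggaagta
Nle1, chr11:82908355-82908384, minus strand: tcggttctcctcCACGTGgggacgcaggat
The 6 letters are the same in each, and the flanking bases differ. Of the other motifs searched on both strands, CGGAAG, the core letters bound by ETS factors, was in 37.5% of the 48 windows, 28.6% of windows of genes tested and 16.9% of all windows. CCAAT was in 29.2%, 37.5% and 37.4% of these windows. A longer palindromic element found in CpG island promoters was in 0 of the 48 windows. It was in 0.931% of windows of genes tested and 0.466% of all windows, too rare for 0 of 48 to be informative.

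Several of the 44 genes hold snoRNA genes within their span, on the same strand. Whether these lie in introns was not checked. In the annotation, 31 snoRNA genes lay inside 9 of the 44 genes, namely Taf1d, Ncl, Gnl3, Nop56, Nop58, Dkc1, Tsr1, Wdr43 and Ppan. Of these 9 hosts, 7 fell, 1 rose and 1 did not pass the test, with a median log2 fold change of -0.53. Of the other 35 genes, 33 fell and the median was -0.88, a difference that was not tested. The 9 hosts include the gene that rose, Dkc1, and Taf1d, one of the 3 that did not pass. The snoRNA genes themselves were hardly counted, with 18 of the 31 at 0 counts and no more than 83 counts in total over the 6 libraries for any of them.

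A list of 149 further ribosome biogenesis genes was followed beside the 44. Of these, 148 were matched and 146 tested, 107 fell, 12 rose and 27 did not pass the test, with a median log2 fold change of -0.45. Of all genes tested, 34.0% fell and 34.5% rose. They held 1.26 ± 0.00321% of counts in wild type and 0.954 ± 0.00795% in the knockout (SD, n = 3 each). Ddx21, a helicase that works with RNA polymerase I, went from 381, 381 and 385 CPM to 142, 145 and 135 CPM (log2 fold change -1.44, SE 0.0425). Mdn1, the giant ATPase that strips factors from the 60S particle, went from 268 ± 5.93 to 113 ± 1.92 CPM (SD, n = 3 each), a log2 fold change of -1.25. Mybbp1a, a nucleolar Myb-binding protein, was at -0.80 (SE 0.0366), and Eif6, which keeps the new 60S subunit from joining the 40S, was at -1.07 (SE 0.0509). By step, 12 of 20 further genes in the RNA polymerase I group, which includes Tbp, Baz2a and Polr2 subunits, fell and 3 rose. For box C/D particles 6 of 8 fell, and for the small subunit 34 of 44 fell and 2 rose. For the large subunit 43 of 54 fell and 4 rose. For the exosome and trimming of the precursor 11 of 18 fell and 3 rose, with the least negative median among these steps, at -0.32.

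The genes for subunits of SL1, the factor that brings RNA polymerase I to its promoter, did not all go one way. Taf1b rose, Taf1a and Taf1c fell, and Taf1d and Tbp did not pass the test. By the same rule 34.0% of all genes tested fell and 34.5% rose, so a mix of directions is common in these libraries. Among the further genes tested, Taf1b alone rose by at least 0.5 on the log2 scale. It went from 17.1 ± 3.17 to 30.2 ± 0.871 CPM (SD, n = 3 each), with no overlap (log2 fold change 0.82, SE 0.121, edgeR adjusted p = 1.35e-06). Taf1a went from 15.1, 14.9 and 15.7 CPM to 7.09, 6.24 and 5.97 CPM (log2 fold change -1.24, SE 0.155), and Taf1c was at -0.77 (SE 0.111). Tbp, which also serves the other nuclear RNA polymerases, was at -0.06 (SE 0.0623), and its groups overlapped. Taf1a, Taf1c and Tbp were chosen after their values were seen, as partners of Taf1b and Taf1d.

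Some values rest on less than the whole transcript. At least 30% of the longest coding transcript of Npm1, Fbl, Nop56, Dimt1 and Mrto4 had a copy elsewhere in the annotated transcripts with 97% identity or more. Reads that aligned to more than 1 place, 13.8 to 15.0% of each library, were not counted to genes, so these 5 were counted on the rest, and their split with the copies is uncertain. Without these 5, 35 of 39 genes fell. Exons of oppositely oriented genes overlap 32.3% of Tsr1 exon sequence (Srr), 31.9% in Dimt1 (Kif2a), 9.37% in Bysl (Ccnd3) and at most 7.21% in other members of the 44. The strand setting was not given in the sources used here, so reads in those stretches cannot be told apart by strand.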

How the data were processed

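The authors deposited 1 table of whole-number read counts per Ensembl gene for each of the 6 libraries, with no normalisation. HISAT2 2.1.0, HTSeq 0.9.1, DESeq2 1.18.1 and the build mm10 are named, per the submitters' processing notes. Which annotation release and strand setting they used is not given in the sources used here. Of each table, the 5 closing tallies of reads given to no gene, 61.6 to 64.0% of reads, stayed out. Symbols, exon lengths and overlaps came from GENCODE M21 (GRCm38, the same build). Counts of 15816 genes that passed filterByExpr (minimum count 10) were scaled by TMM and tested with edgeR 4.0.16 in R 4.3.3, knockout against wild type, with no covariate and Benjamini-Hochberg adjustment over all genes. Each SE is the absolute log2 fold change over the square root of F. CPM are TMM-scaled, and RPKM divide mean CPM by the length of all annotated exons, which lowers genes with long rare exons. Copies were found with BLAST over at least 150 bases.

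Members and lists were chosen with earlier results of these data known. Every member is accounted for. Up to 3 per role and direction with the smallest adjusted p are given by library, as is Npm1, added after its values were seen, and of the further genes up to 4 per direction with a change of at least 0.5. Those that did not pass are also given by library. Alternatives were DESeq2 1.42.0, limma-voom (limma 3.58.1), RLE and upper-quartile scaling, other filters, the replicate block and leaving out each library. The test was run on simulated data first.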

Additional observations from a re-analysis of the deposited data

How the results depend on the processing

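Of the 44 genes, 39 or 40 fell, 1 rose and 30 to 32 fell by at least 0.5 under every alternative that was run: DESeq2, limma-voom, RLE and upper-quartile scaling, no filter, a filter at 1 CPM in 3 libraries, the replicate block, each library left out, and removal of ribosomal RNA repeat and mitochondrial genes, which was chosen after seeing the data. The median log2 fold change of the 44 ran from -0.85 to -0.78, and the further genes kept 101 to 109 falls. Over single genes, 612 of 616 values kept their call, and the other 4 were all Npm1. With upper-quartile scaling the median of all genes was 0.046 against 0.0091, 5769 genes were higher and 5104 lower, and the further genes that rose numbered 16 against 12. With the replicate block 40 of the 44 fell and 1 rose. Deviations of same-numbered libraries from their group means had correlations of 0.0227, 0.0099 and -0.0015. These values gave no sign that the replicate numbers pair the libraries, but they cannot exclude it. The difference between groups in the log2 ratio of Polr1b to Polr1a, -0.12, was -0.07 without knockout replicate 1. The lowest count of any of the 44 in a library was 161, for Nle1, which also had the largest SE of the 44, 0.120.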
